A study of Caenorhabditis elegans with 14 samples.

Results

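The 9 genes described here make or break down ceramide and glucosylceramide in *Caenorhabditis elegans*. They were taken by name (*sptl-1*, *hyl-1*, *hyl-2*, *lagr-1*, *asah-1*, *asah-2*, *gba-2*, *gba-3* and *gba-4*) from among 41560 gene symbols. *asah-2* is listed under its sequence name F27E5.1 and was matched through its RefSeq transcript. The level of a gene is its FPKM, the number of sequenced fragments scaled to transcript length and library size, summed over its listed transcripts.

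Ceramide is the lipid from which sphingomyelin and the glycosphingolipids are made. Serine palmitoyltransferase starts the route by joining serine to a fatty acyl chain, ceramide synthases attach a further fatty acid to the resulting long-chain base, and a glucosyltransferase can then add glucose to give glucosylceramide. In the opposite direction a glucosylceramidase removes the glucose and ceramidase splits ceramide into sphingosine and a fatty acid.

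Messenger RNA of whole animals was sequenced to ask how loss of miR-60, a microRNA of the intestine, changes gene expression in young adults and during long oxidative stress. There were 7 libraries: *mir-60;spe-9* double mutants at Day 0 (2), Day 7 (1) and Day 10 (1) of adulthood, and *spe-9* animals at Day 0 (2) and Day 7 (1). Both strains carried *spe-9(hc88)*, a temperature-sensitive allele that causes sterility through a sperm defect, and were grown at 23.5 °C, so the controls are not wild type. The double mutants also carried the *mir-60(n4947)* deletion. Day 0 animals were untreated young adults, whereas the animals of Day 7 and Day 10 had been kept since Day 0 on plates with 5 mM paraquat, which generates superoxide, and 325 µM FUDR, which stops progeny from growing. Age, paraquat and FUDR therefore began together and cannot be told apart. RNA came from populations of whole animals, so fewer cells of a type and less RNA per cell cannot be told apart either. The study chose the later days by survival on paraquat. Median survival was near Day 7 for *spe-9* and near Day 10 for the double mutants. At Day 7 the strains were therefore at unlike points of survival.

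The deposited values are FPKM, and the study's read counts and read totals were not used here, so no counting error is given for single values. Between 12183 and 13294 genes reached 1 FPKM in a library. The study's methods describe the 2 Day 0 libraries of a strain as biological replicates from independent RNA preparations. Marker genes of several tissues moved strongly after Day 0. The 5 body wall muscle markers summed to 47.4 to 57.0 FPKM at Day 7, against 562 to 784 FPKM at Day 0, the 5 intestine markers to 35.9 to 45.1 FPKM, against 213 to 245 FPKM, and the 5 oocyte markers to 460 to 631 FPKM, against 1362 to 1844 FPKM. All 15 of these markers fell. Of the 5 neuron markers, 2 rose (*snb-1* and *egl-3*) and 3 were not called. The 6 germline markers moved less, with sums of 583 to 613 FPKM at Day 7, against 624 to 761 FPKM at Day 0. Of them 2 rose and 2 fell. No sperm marker was called in this comparison.

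**Figure D1:**
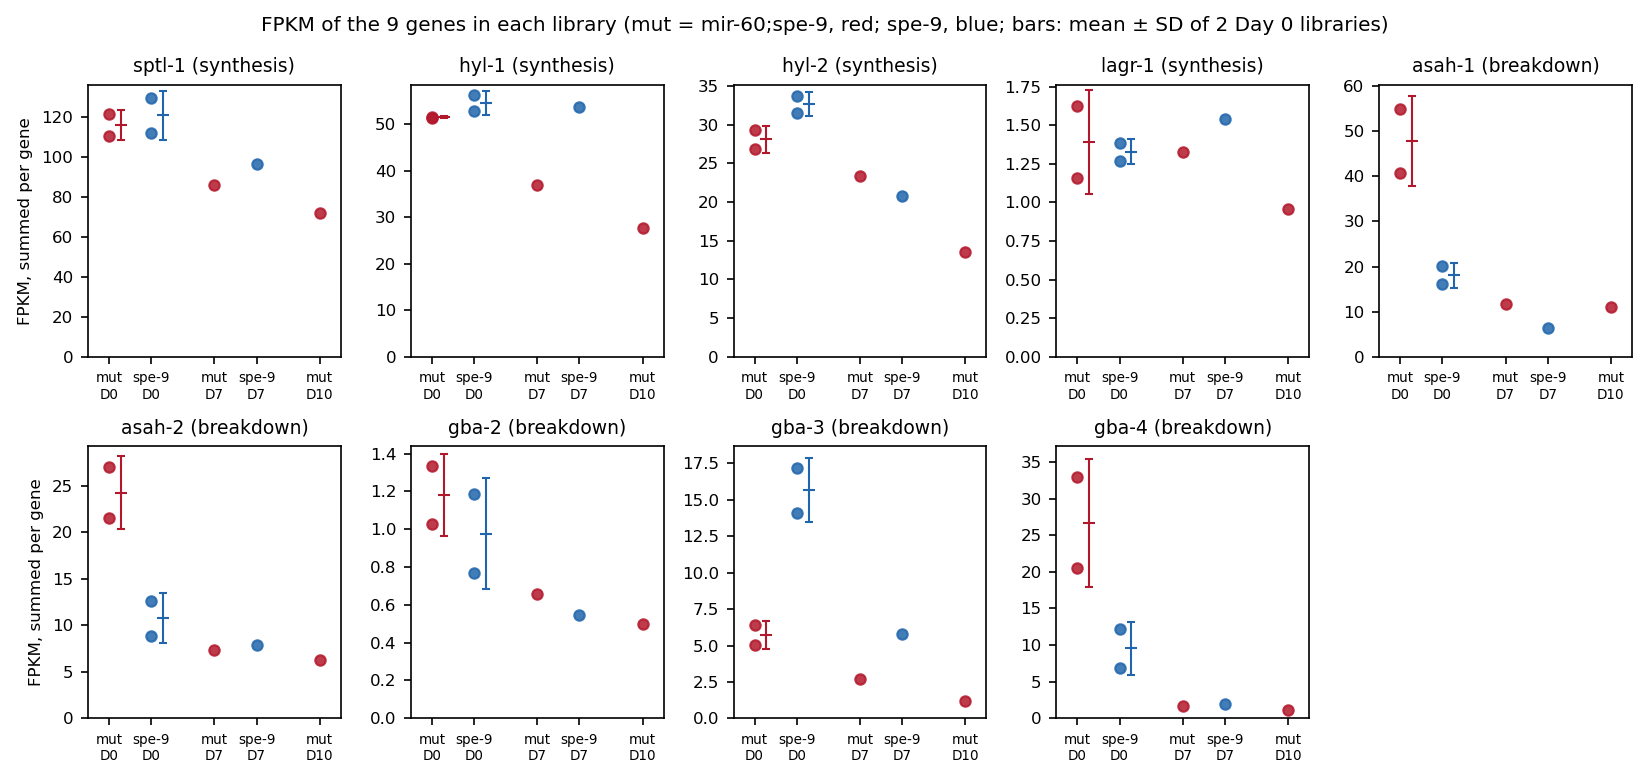
FPKM of each of the 9 genes (vertical axes, from 0, with a scale of its own in each panel) in the 7 libraries, *mir-60;spe-9* in red and *spe-9* in blue, for Day 0 (D0), Day 7 (D7) and Day 10 (D10). Points are libraries and bars are the mean ± SD of the 2 Day 0 libraries of a strain. The double mutants stand above *spe-9* at Day 0 in *asah-1*, *asah-2* and *gba-4* and below it in *gba-3*, and the Day 10 library is the lowest of the double mutants in all 9 panels.

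Over the 7 libraries the genes of ceramide synthesis were, apart from *lagr-1*, the most abundant of the 9. Mean levels were 104 FPKM for *sptl-1*, 47.1 FPKM for *hyl-1*, 25.6 FPKM for *hyl-2*, 23.0 FPKM for *asah-1*, 13.1 FPKM for *asah-2*, 11 FPKM for *gba-4*, 7.50 FPKM for *gba-3*, 1.32 FPKM for *lagr-1* and 0.860 FPKM for *gba-2*. *sptl-1* was above *hyl-1* in every library, and *hyl-1* above *hyl-2*. From *hyl-2* down to *gba-3* the order of neighbours changed between libraries, and so did that of *lagr-1* and *gba-2*. Among the 9, the synthesis genes varied less than the breakdown genes other than *gba-2*. The highest library exceeded the lowest by 1.46-fold in *lagr-1*, 1.79-fold in *sptl-1*, 2.02-fold in *hyl-1* and 2.44-fold in *hyl-2*, while the same range was 20.1-fold in *gba-4*, 10.4-fold in *gba-3*, 8.04-fold in *asah-1* and 4.08-fold in *asah-2*. *gba-2* spanned 1.84-fold. These ranges are of log2(FPKM + 0.5), a scale that understates changes of low genes, and all fold changes and log2 differences below are on it.

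At Day 0 the strains differed by more than 2-fold in 4 of the 9 genes, all 4 on the breakdown side. The ceramidase genes *asah-1* and *asah-2* and the glucosylceramidase gene *gba-4* were higher in the double mutants, and the glucosylceramidase gene *gba-3* was lower. Such a difference was not limited to breakdown genes of the pathway. Outside the 9, the ceramide glucosyltransferase gene *cgt-1*, singled out after its values were seen, was 3.10-fold higher (limma, adjusted p = 0.141). None of the 9 genes passed the test across all genes (limma, adjusted p under 0.05), which called 0.742% of the 13068 genes tested. In an alternative fit with the replicate number as a block, 354 genes were called, among them these 4. At an unadjusted p under 0.05 limma counted 4 of the 9, with 3 higher and 1 lower, where 15% of all genes tested were counted. The members were higher in both double mutant libraries than in both *spe-9* libraries in 3 cases, against 27.1% of all genes tested, and lower in 3 cases, against 24.5%. An exact permutation test of 2 libraries against 2 could not have given a p below 0.333.

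*asah-1* and *asah-2* encode homologs of acid ceramidase, the lysosomal enzyme that splits ceramide. *asah-1* (chromosome I, 12505115 to 12507501 in WS220) had 40.8 and 54.9 FPKM in the double mutants at Day 0, against 16.2 and 20.0 FPKM in *spe-9*. The lower double mutant library was above the higher *spe-9* library. The fitted difference was 2.59-fold (log2 1.37 ± 0.19, SE; 95% confidence interval 0.83 to 1.91), with an adjusted p of 0.0972 in limma. It came below the threshold, at 0.0471, when only genes of at least 200 bases were tested. *asah-2* (chromosome II, 10139540 to 10141287) had 27.0 and 21.5 FPKM in the double mutants and 12.6 and 8.85 FPKM in *spe-9*, again without overlap. Its difference was 2.22-fold (log2 1.15 ± 0.22, SE; 95% confidence interval 0.54 to 1.76; limma, adjusted p = 0.145).

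*gba-2*, *gba-3* and *gba-4* encode glucosylceramidases, which remove the glucose from glucosylceramide, and the strain differences of *gba-3* and *gba-4* at Day 0 went in opposite directions. *gba-4* (chromosome IV, 5344625 to 5350830) had 32.9 and 20.5 FPKM in the double mutants, against 12.1 and 6.93 FPKM in *spe-9*. The libraries of a strain were far apart, yet the strains did not overlap, and replicate 1 was the higher library in both. The difference was 2.73-fold (log2 1.45 ± 0.37, SE; 95% confidence interval 0.43 to 2.47; limma, adjusted p = 0.216). The summed level of the 5 epidermis markers ran in the same order over these 4 libraries, with 2143 and 1694 FPKM in the double mutants and 1506 and 1261 FPKM in *spe-9*. Of these markers *che-14* was too low to be tested, and none of the others was called. The cuticle collagen gene *col-19* made up most of the sum. The collagen gene *dpy-7* had 15.6 and 6.32 FPKM in the double mutants and 5.40 and 1.98 FPKM in *spe-9*. In contrast, *lin-26* did not separate the strains, with 73.5 and 78.6 FPKM in the double mutants and 74.7 and 76.6 FPKM in *spe-9*. The other markers were *vab-10*, with 27.5 and 24.5 FPKM, against 23.4 and 23.1 FPKM, and *che-14*, with 0.867 and 0.656 FPKM, against 0.528 and 0.522 FPKM. The part of epidermis RNA in the *gba-4* difference was not tested.

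*gba-3* (chromosome IV, 17473297 to 17479336) was the member whose Day 0 difference ran the other way. It had 6.40 and 5.03 FPKM in the double mutants, against 17.2 and 14.1 FPKM in *spe-9*. The higher double mutant library had less than the lower *spe-9* library, and replicates were close. The fitted level in the double mutants was 0.384 of that in *spe-9* (log2 -1.38 ± 0.17, SE; 95% confidence interval -1.86 to -0.90), with an adjusted p of 0.0794 in limma. The adjusted p was 0.0474 after median centring of the libraries, 0.0318 after quantile normalization and 0.0416 among genes of at least 200 bases, so the call depended on the scaling and the genes tested while the direction did not. The genes F11E6.9 and *grl-24* lie within the span of *gba-3*. F11E6.9 had 3.39 and 1.16 FPKM in the double mutants and 0.682 and 0.206 FPKM in *spe-9*, the opposite direction to *gba-3*.

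The summed levels of sperm, body wall muscle and neuron markers also stood apart between the strains at Day 0, and those of intestine markers barely did. The 5 sperm markers summed to 26.3 and 17.1 FPKM in the double mutants, against 4.34 and 4.16 FPKM in *spe-9*, and the body wall muscle markers to 784 and 749 FPKM, against 562 and 567 FPKM. The intestine markers summed to 245 and 225 FPKM in the double mutants and 224 and 213 FPKM in *spe-9*. Their most abundant member, *act-5*, had 172 and 160 FPKM in the double mutants and 174 and 167 FPKM in *spe-9*, while the other intestine markers were higher in the fit. The neuron markers summed to 1023 and 1016 FPKM in the double mutants, against 962 and 972 FPKM in *spe-9*. The germline and oocyte sums overlapped between the strains. The sperm markers *spe-11* and *gsp-3* were too low to be tested. No other marker of these lists was called in limma, and the part of the markers in the 4 differences was not tested.

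The synthesis genes described and *gba-2* lay close together in the strains at Day 0. *sptl-1*, which encodes a subunit of serine palmitoyltransferase, had 122 and 111 FPKM in the double mutants and 130 and 112 FPKM in *spe-9*, and the libraries overlapped (log2 -0.06, 95% confidence interval -0.34 to 0.23). *hyl-1* and *hyl-2* encode ceramide synthases that differ in the chain length of the fatty acid they attach, HYL-2 being needed for survival of anoxia. *hyl-1* had 51.3 and 51.6 FPKM in the double mutants and 56.3 and 52.7 FPKM in *spe-9* (log2 -0.08, 95% confidence interval -0.27 to 0.10), and *hyl-2* had 29.3 and 26.9 FPKM, against 33.7 and 31.6 FPKM (log2 -0.21, 95% confidence interval -0.44 to 0.02). Both were lower in both double mutant libraries by small margins, and the intervals leave out a 2-fold difference for these 3 genes.

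The third ceramide synthase gene, *lagr-1*, was low, with 1.63 and 1.16 FPKM in the double mutants and 1.38 and 1.27 FPKM in *spe-9* (log2 0.04, 95% confidence interval -0.78 to 0.86). *gba-2* had 1.03 and 1.33 FPKM in the double mutants, against 0.769 and 1.18 FPKM in *spe-9* (log2 0.19, 95% confidence interval -0.78 to 1.16). In both genes the strains overlapped. The sign of the *lagr-1* difference turned after median centring (-0.05) and quantile normalization (-0.24), and that of *gba-2* after quantile normalization (-0.07). The intervals of *lagr-1* and *gba-2* are wide, so that smaller differences were not detectable in these low genes.

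**Figure D2:**
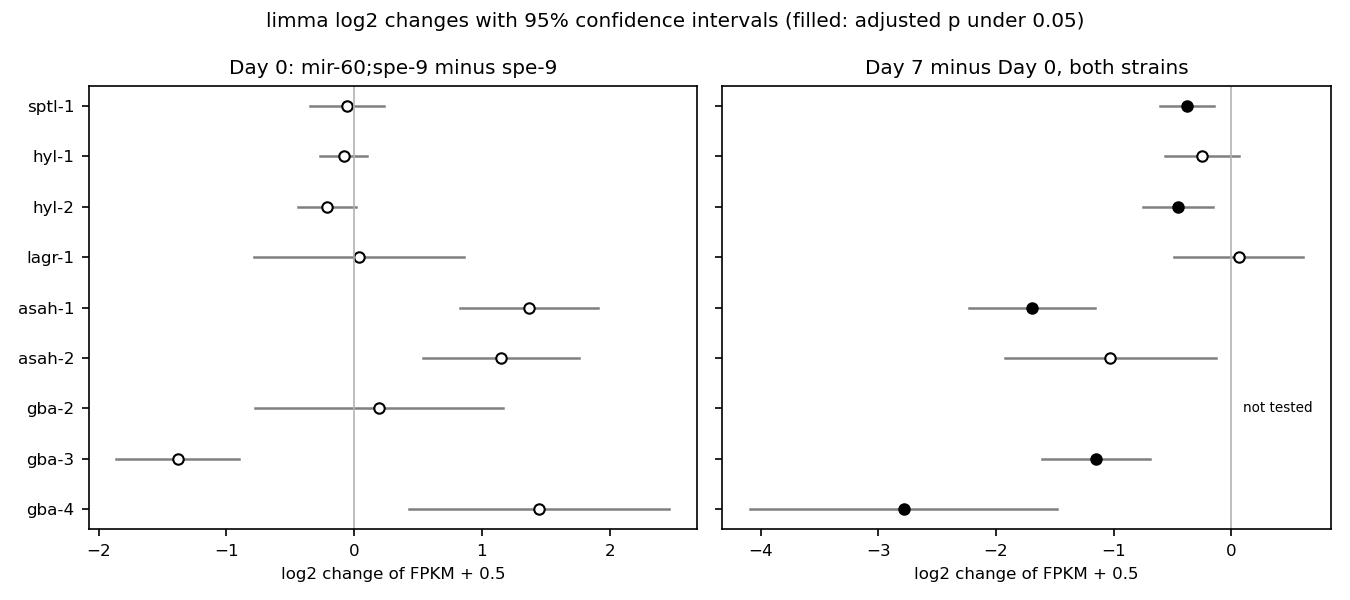
Log2 changes of FPKM + 0.5 for the 9 genes (horizontal axes) with 95% confidence intervals from limma, double mutants minus *spe-9* at Day 0 on the left and Day 7 minus Day 0 in both strains on the right. Filled points have an adjusted p under 0.05, which 0 of the 9 genes had at Day 0 and 5 of 8 tested genes had at Day 7, all 5 lower at Day 7.

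By Day 7 breakdown genes stood lowest relative to Day 0. In a fit of both strains with a strain term, 5 of the 8 genes tested fell (limma, adjusted p under 0.05) and none rose, where 27.5% of all 13639 genes tested fell and 33.2% rose. The median log2 change of the 8 was -0.74, against 0.06 over all genes tested. Of the breakdown genes 3 of 4 fell, with a median of -1.42, and of the synthesis genes 2 of 4, with a median of -0.31. *gba-2* had a mean below 1 FPKM over these 6 libraries and was not tested. The markers of muscle, intestine and oocytes fell in the same comparison, as given above, and their part in these changes was not tested.

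*gba-4* changed most of the 8 genes tested. It had 1.64 FPKM in the double mutant and 2.02 FPKM in the *spe-9* library of Day 7, against 6.93 to 32.9 FPKM in the 4 libraries of Day 0. Both Day 7 libraries lay below all Day 0 libraries, and the fitted level was 0.145 of that at Day 0 (log2 -2.78 ± 0.49, SE; limma, adjusted p = 0.00802). Each strain's Day 7 library stood below its own Day 0 mean, by a log2 difference of -3.63 for the double mutants and -1.94 for *spe-9*. The epidermis markers summed to 100 to 111 FPKM at Day 7 and 1261 to 2143 FPKM at Day 0, with 3 of 5 lower and 1 higher in limma, and *dpy-7* was listed at 0 in the double mutant library of Day 7.

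*asah-1* had 11.8 FPKM in the double mutant and 6.39 FPKM in the *spe-9* library of Day 7, against 16.2 to 54.9 FPKM at Day 0. Both Day 7 libraries were again below all 4 of Day 0, and the level fell to 0.309 of that at Day 0 (log2 -1.69 ± 0.20, SE; limma, adjusted p = 0.00246). *asah-1* and *gba-4* kept their call under each of the 16 alternative settings. *asah-2* had 7.36 FPKM in the double mutant and 7.84 FPKM in the *spe-9* library, against 8.85 to 27.0 FPKM at Day 0. The Day 7 libraries lay below all Day 0 libraries, and the log2 difference from the Day 0 mean was -1.65 in the single Day 7 library of the double mutants and -0.41 in that of *spe-9*. Whether these differ was not tested, and the joint change did not pass (log2 -1.03 ± 0.34, SE; limma, adjusted p = 0.0531). Under the alternative settings *asah-2* passed in 7 of 16.

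*gba-3* fell to 0.450 of its Day 0 level (log2 -1.15 ± 0.17, SE; limma, adjusted p = 0.00484). It had 2.70 FPKM in the double mutant library of Day 7, against 6.40 and 5.03 FPKM at Day 0, and 5.81 FPKM in the *spe-9* library of Day 7, against 17.2 and 14.1 FPKM at Day 0. Each strain's Day 7 library was below both its Day 0 libraries, although the *spe-9* library of Day 7 lay within the Day 0 range of the double mutants. The gene is listed as 4 transcripts, and with the transcript of highest mean level in place of the sum the change was -0.54 on the log2 scale and no longer passed (limma, adjusted p = 0.266). That transcript was 1 of 2 entries of the same coding length and ends, 1569 bases, between which the reads had to be divided.

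*gba-2*, which was not tested, had 0.660 FPKM in the double mutant and 0.548 FPKM in *spe-9* at Day 7, both below the 0.769 to 1.33 FPKM of Day 0. The gene lies on chromosome II, from 2182523 to 2186426.

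Among the synthesis genes described the changes were small. *sptl-1* had 86.1 FPKM in the double mutant and 96.8 FPKM in the *spe-9* library of Day 7, against 111 to 130 FPKM at Day 0, and fell to 0.772 of the Day 0 level (log2 -0.37 ± 0.09, SE; limma, adjusted p = 0.0189). *hyl-2* had 23.4 and 20.8 FPKM in these Day 7 libraries, against 26.9 to 33.7 FPKM, and fell to 0.732 (log2 -0.45 ± 0.11, SE; limma, adjusted p = 0.0233). In both genes the Day 7 libraries lay below all Day 0 libraries. *hyl-1* had 36.9 FPKM in the double mutant library, below all Day 0 libraries, and 53.7 FPKM in the *spe-9* library, within their 51.3 to 56.3 FPKM, and its joint change did not pass (log2 -0.25, limma, adjusted p = 0.135). *lagr-1* had 1.33 FPKM in the double mutant and 1.54 FPKM in *spe-9*, inside the Day 0 range of 1.16 to 1.63 FPKM (log2 0.06, 95% confidence interval -0.49 to 0.61), and its sign turned after quantile normalization (-0.13).

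The calls of *sptl-1* and *hyl-2* were lost in fits with 1 library fewer, mostly at changes of about the same size. Without *spe-9* Day 0 replicate 1 both were lost, at log2 -0.34 for *sptl-1* (limma, adjusted p = 0.0503) and -0.40 for *hyl-2* (0.0607), which left 3 of the 9 genes called. *hyl-2* was also lost without *spe-9* Day 0 replicate 2 (log2 -0.44, limma, adjusted p = 0.0637) and without *mir-60;spe-9* Day 0 replicate 1 (-0.45, 0.0619). Without the *spe-9* library of Day 7 its change was smaller, at -0.26 (limma, adjusted p = 0.104). *sptl-1* was lost as well without the *spe-9* library (log2 -0.43, limma, adjusted p = 0.0670) or the double mutant library (-0.32, 0.124) of Day 7. *hyl-1* was called after median centring of the libraries (log2 -0.29, limma, adjusted p = 0.0399). It was also called without the *spe-9* library of Day 7, where only the double mutant shows the later day (log2 -0.48).

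With 1 library of each strain, the strain difference at Day 7 has no replicate check and no test. *asah-1* was still higher in the double mutant (log2 0.84) and *gba-3* still lower (-0.98), in each case by less than at Day 0, where the fitted differences were 1.37 and -1.38. The difference of *asah-2* was -0.09 at Day 7, against 1.15 at Day 0, and that of *gba-4* was -0.23, against 1.45. *hyl-1* was lower in the double mutant (-0.54), and the other 4 genes lay between -0.17 and 0.17. None of the 9 was past 2-fold in either direction, where 4.02% of 13745 genes were past it in the higher direction and 5.57% in the lower. Whether the strain difference changed between the days was not tested.

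**Figure D3:**
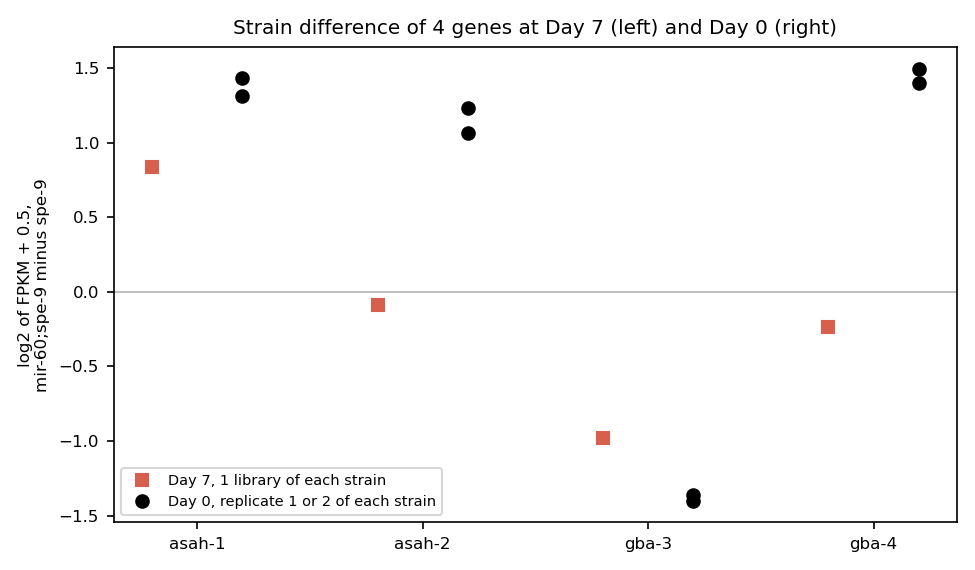
Log2 difference of FPKM + 0.5, *mir-60;spe-9* minus *spe-9* (vertical axis), for those 4 of the genes described with a Day 0 difference above 2-fold. Squares are the single Day 7 libraries and circles the Day 0 libraries of the same replicate number. *asah-1* at 0.84 and *gba-3* at -0.98 kept their direction at Day 7, whereas *asah-2* at -0.09 and *gba-4* at -0.23 lay near 0.

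At Day 10, sampled in the double mutants only, all 9 genes were below their Day 0 mean and below their Day 7 level. The median log2 difference from Day 0 was -1.03 over the 9 genes and -0.14 over all 13745 genes, and 5 of the 9 were more than 2-fold lower, where 23.1% of all genes were. Those 5 were *gba-4* (-3.99), *asah-1* (-2.04), *asah-2* (-1.87), *gba-3* (-1.86) and *hyl-2* (-1.03). Between Day 7 and Day 10 none of the 9 was past 2-fold lower, against 5.35% of all genes, the median difference was -0.33 and 65.9% of all genes had a negative difference, so that a lower value at Day 10 was common in this library.

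The step to Day 10 was uneven among the members. Across Day 0, Day 7 and Day 10 of the double mutants, *asah-1* had 40.8 and 54.9, then 11.8, then 11.1 FPKM, so that it was nearly level over the last interval (Day 10 minus Day 7, log2 -0.08). *gba-4* had 32.9 and 20.5, then 1.64, then 1.16 FPKM, and *asah-2* 27.0 and 21.5, then 7.36, then 6.25 FPKM (-0.37 and -0.22). *gba-3* was lower again, at 1.2 FPKM after 2.70 FPKM at Day 7 (-0.91).

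The synthesis genes described were also at their lowest in the Day 10 library. *hyl-2* was at 13.5 FPKM after 23.4 FPKM at Day 7 of the double mutants (-0.77), *hyl-1* at 27.6 FPKM after 36.9 FPKM (-0.41) and *sptl-1* at 72.3 FPKM after 86.1 FPKM (-0.25). *lagr-1* had 0.955 FPKM after 1.33 FPKM (-0.33), and *gba-2*, of the breakdown genes, 0.497 FPKM after 0.660 FPKM (-0.22). These are single libraries with no test.

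Genes with a pattern like that of *gba-4*, the member with the widest range, were sought over the 7 libraries by Pearson correlation of log2(FPKM + 0.5). The 5 most alike of 8695 genes were *ifc-2* (0.998), Y60A3A.16 (0.997), *mlt-8* (0.994), *tre-3* (0.994) and *noah-2* (0.993). *ifc-2* encodes an intermediate filament protein and *noah-2* a protein of the apical extracellular matrix needed at moulting. *mlt-8* had 25 and 12.9 FPKM in the double mutants and 11.1 and 6.43 FPKM in *spe-9* at Day 0, then 2.30 FPKM in the double mutant and 2.23 FPKM in *spe-9* at Day 7, and 1.80 FPKM in the double mutant at Day 10. Such values are common here, since 351 of the 8695 genes had a correlation above 0.95, and the points share their libraries.

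Of 22 further genes of the sphingolipid pathway, 21 could be tested. At Day 0 limma called none of them, against 0.742% of all genes tested, and 9 of the 21 had an unadjusted p under 0.05, against 15% of all genes, with 6 higher and 3 lower in the double mutants. By Day 7, 6 of the 21 rose and 7 fell, counts that lay near the 33.2% and 27.5% of all genes tested, and the median log2 change was -0.26, against 0.06 over all genes. The largest rise was in *hex-1*, a beta-hexosaminidase gene, with 189 FPKM in the double mutant and 87.8 FPKM in the *spe-9* library of Day 7, against 26.5 and 24.3 FPKM and 19.2 and 19.3 FPKM in the same strains at Day 0 (log2 2.52, limma, adjusted p = 0.000673). All Day 7 values of *hex-1* were above all Day 0 values.

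Other genes of this further list went both ways by Day 7. The acid sphingomyelinase gene *asm-1* rose (log2 1.22), with 14.7 FPKM in the double mutant and 12.5 FPKM in *spe-9*, against 4.32 to 6.58 FPKM at Day 0, while its paralog *asm-2* fell (-1.52), with 2.97 and 1.25 FPKM, against 4.93 to 8.91 FPKM. *gana-1*, an alpha-galactosidase and N-acetylgalactosaminidase gene, fell (-1.90). The glycolipid glycosyltransferase gene *bre-5* also fell (-1.90), with 6.76 FPKM in the double mutant and 10.1 FPKM in *spe-9*, against 28.6 to 37.9 FPKM. *spl-1*, the gene of sphingosine-1-phosphate lyase, which ends the pathway, fell too (-0.98).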

How the data were processed

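RNA of whole animals was sequenced as single-end reads of 100 bases from stranded libraries, and the 2 sequencing runs of each of the 7 libraries (14 samples) were merged. Per the study's methods the authors aligned reads to WS220. The submitters' processing notes name TopHat2 2.1.0, Bowtie2 2.1.0 and Cufflinks 2.2.1, with the strand setting not given in the sources used here. The deposited values are FPKM per RefSeq transcript, already scaled for length and library size. The deposited length column was used, and the lengths of all 15 entries of the 9 genes are multiples of 3, that is coding lengths.

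FPKM were summed per gene, and log2(FPKM + 0.5) was analysed with limma 3.58.1 in R 4.3.3 (lmFit, eBayes with a variance trend), for genes with a mean of at least 1 FPKM over the libraries of a fit, with Benjamini-Hochberg adjustment. The Day 0 fit had 4 libraries and the Day 7 fit 6 with strain as a term. The study's own count test could not be applied to FPKM. The study also reported gene counts and count test results at Day 0, which were not used here. Single-library differences were counted past 2-fold. The code was tested on simulated data. Alternatives were other pseudocounts (0.1 and 1), filters (none, or 10 FPKM), median centring, quantile normalization, no variance trend, the highest transcript, genes of at least 200 bases, each library left out, a replicate block, and the Day 10 library added. Named were the 9 genes described, up to 6 called genes of the further list per fit by size of change, and the 5 genes most like the member of widest range. Of the 10 genes chosen, 1 is not reported here. The members and lists were chosen with earlier results of these data known.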

Additional observations from a re-analysis of the deposited data

How the results depend on the processing

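Each library left out in turn gave 0 calls at Day 0 among all genes each time (against 97 with all libraries, and with 1154 to 1564 genes at an unadjusted p under 0.05 in limma) and 3 to 5 of the genes described called at Day 7. Over all genes at Day 0 limma called 42 with no filter and 204 among genes of at least 200 bases. Of the 9 genes described, the number called at Day 0 was 1 after median centring, 1 after quantile normalization and 2 among genes of at least 200 bases. With the replicate number as a block (replicate block), 354 genes were called at Day 0, of them 286 higher and 68 lower, and 4 of the genes described: *asah-1* (adjusted p = 0.0345), *asah-2* (0.0414), *gba-3* (0.0352) and *gba-4* (0.0337, all limma). The labels do not say that a number marks a shared batch, although the study used paired t-tests across RNA preparations in its qRT-PCR. Deviations of same-numbered libraries correlated at 0.076 over the 13068 genes tested and 0.347 over the 12192 of at least 200 bases, so the block stays an alternative. Signs turned in 3 genes, none of them called there. At Day 0 this was *lagr-1* with median centring (-0.049) and quantile normalization (-0.24) and *gba-2* with quantile normalization (-0.067). With each Day 0 library left out, the Day 0 log2 difference ranged from -0.16 to 0.049 in *sptl-1* and from -0.14 to 0.22 in *lagr-1*. In *gba-2* it ranged from -0.0094 to 0.40, but without *mir-60;spe-9* Day 0 replicate 2 this gene fell below the filter and was not tested. At Day 7 the sign turned in *lagr-1*, with quantile normalization (-0.13), with the Day 10 library added (-0.057) and over the libraries left out (-0.037 to 0.16). The calls of *asah-1* and *gba-4* at Day 7 held under all 16 alternatives. The study's read counts were not used here, so no counting error is given for low genes such as *lagr-1* and *gba-2*.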

Other observations

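A pair of genes of the pathway were singled out after their values were seen. *cgt-1*, one of the ceramide glucosyltransferase genes, which act in the direction opposite to the *gba* genes, had 6.25 and 4.02 FPKM in the double mutants at Day 0, against 1.56 and 1.04 FPKM in *spe-9* (log2 1.63, limma, adjusted p = 0.141). Its Day 7 levels were 4.49 FPKM in the double mutant and 3.43 FPKM in *spe-9*, and its Day 10 level was 5.25 FPKM. *sptl-2*, which encodes a further serine palmitoyltransferase subunit, had 6.01 and 4.58 FPKM in the double mutants at Day 0 and 4.34 and 3.17 FPKM in *spe-9*. It was at 2.64 FPKM in the *spe-9* library of Day 7 and is listed at 0 in the double mutant libraries of Day 7 and Day 10. The joint change of *sptl-2* at Day 7 did not pass (log2 -1.97, limma, adjusted p = 0.0769). Whether the values of 0 reflect absent RNA was not tested.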
